A study of Mus musculus with 2 samples.

Results

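The genes described here are 36 genes of hepatic stellate cells and of the extracellular matrix, chosen by name. They cover fibrillar, basement membrane and other collagens, matrix proteoglycans and glycoproteins, matrix enzymes and their inhibitors, contractile cytoskeleton genes, and stellate cell receptors, ligands and 1 transcription factor. All 36 were found among the 69691 entries of the deposited gene tables, and their 145 annotated transcripts were found among the 129984 entries of the transcript tables. The tissue was liver of 1 female C57BL/6J mouse aged 10 weeks, and the labels name no injury, treatment or transgene. PolyA RNA of this animal was sequenced as 2 libraries, library 2, made in 2015 as the second technical replicate, and library 1, the first. No fibrotic liver and no second animal was analysed here, so every spread given here is technical, and no test between groups of animals was possible.

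Hepatic stellate cells lie between hepatocytes and the sinusoidal endothelium. In healthy liver they store vitamin A and keep the thin matrix of the sinusoids. After injury they turn into contractile cells that deposit type I and type III collagen, the scar of liver fibrosis. Portal fibroblasts and vascular smooth muscle cells share many of the same genes, hepatocytes secrete plasma fibronectin, and endothelial cells contribute basement membrane chains. In bulk RNA, fewer cells of a type and less RNA per cell cannot be told apart, and the levels below belong to the whole liver.

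The libraries held 19525500 (library 2) and 23309905 (library 1) estimated counts over all genes. They stood apart from each other: library 2 gave 14.9% of its TPM to mitochondrial transcripts and 73.7% to nuclear protein-coding genes, and library 1 gave 40.7% and 37.6% to these classes. TPM is a level in transcripts scaled to the same library sum, corrected for transcript length, and it is used below for levels. Fold differences are library 2 over library 1 on TMM-scaled counts, a scaling that removes a shared shift between libraries, and a gene is called different where the fold reaches 2. With 1 technical library on each side a call carries no p-value. The fold followed the GC content of the transcript across all genes, with a Spearman rho of 0.880 over 12656 genes, so each call is read beside the share of all genes called: of 12728 genes tested, 33.0% were called higher in library 2 and 24.0% lower.

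Fibronectin and decorin were among the 3 highest of the 36 genes in both libraries, and the collagen XVIII chain was so in library 2. Of the type I collagen chains, Col1a2 had rank 18 of the 36 by mean level and Col1a1 shared rank 30. At 1 TPM or more, 32 of the 36 genes were detected in library 2, where 49.8% of nuclear protein-coding genes reached that level. In library 1, 17 of the 36 were detected, against 40.1% of those genes. The same 17 were detected in both libraries, against 39.4% of protein-coding genes. Eln, Fbln1, Timp1 and Lox stayed under 1 TPM in both. The median level of the 36 genes was 3.21 TPM in library 2 and 0.90 TPM in library 1, beside 0.96 and 0.27 TPM over nuclear protein-coding genes. Their summed share of TPM was 0.107% for library 2 against 0.0382% for library 1. Leaving out Fn1 and Col18a1, the sum was 420 TPM in library 2 and 256 TPM in library 1. The order of the genes was similar in both libraries, with a Spearman rho of 0.878 across the 36 genes, which share the library and its depth and are not replicates.

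**Figure D1:**
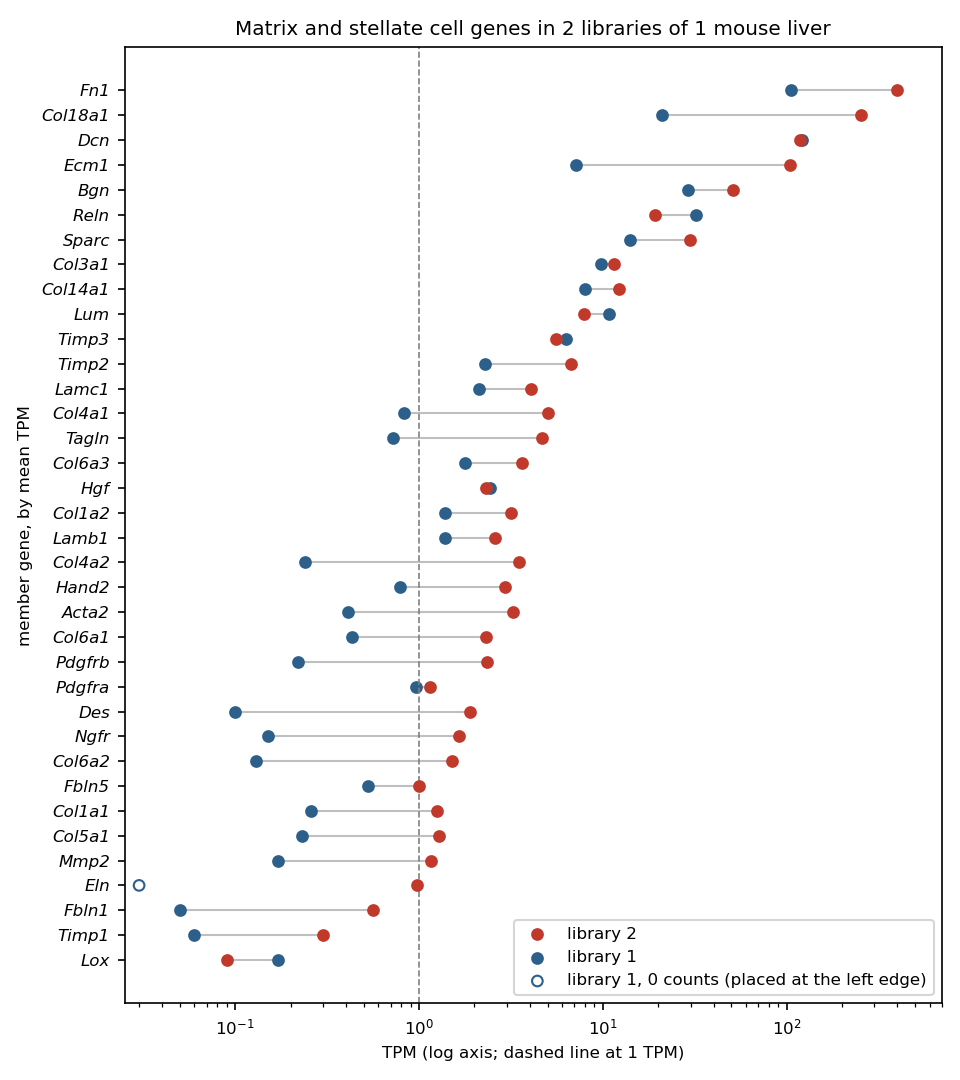
TPM of each of the 36 genes in library 2 (red) and library 1 (blue) on a log axis, ordered by the mean of both libraries. Fn1, Col18a1, Dcn and Ecm1 head the order. The points of Dcn, Hgf, Timp3 and Col3a1 lie close together, while those of Col18a1, Ecm1, Des and Col4a2 lie far apart, and Eln had 0 counts in library 1.

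The fibrillar collagens were led by Col3a1, which encodes the single chain of type III collagen. Col3a1 (chr1:45311538-45349706, plus strand, mm10) had 11.5 TPM in library 2 and 9.82 TPM in library 1, a mean of 10.7 ± 1.20 TPM (SD, n = 2 technical libraries). Col1a2, the alpha-2 chain of type I collagen (chr6:4504814-4541544, plus strand), had 3.17 TPM in library 2 and 1.39 TPM in library 1. Its partner Col1a1 (chr11:94936224-94953042, plus strand) had 1.26 TPM and 0.26 TPM. Type III thus exceeded both chains of type I in both libraries, and Col1a1, often measured as the index of fibrosis, shared rank 30 of the 36 by mean level with Col5a1. Col5a1, a chain of the type V collagen that starts type I fibrils, had 1.29 TPM in library 2 and 0.23 TPM in library 1. Col1a1 and Col5a1 were called higher in library 2, with log2 folds of 1.39 (95% counting interval 0.83 to 2.00) and 1.56 (1.08 to 2.08). Col1a2 was not called, with a log2 fold of 0.29. Neither was Col3a1, whose log2 fold was -0.42 by TMM and 0.23 as a ratio of TPM.

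Type I collagen is a heterotrimer that holds more alpha-1 than alpha-2 chains. At the transcript level, the TPM ratio of Col1a1 to Col1a2 was 0.397 in library 2 (95% counting interval 0.315 to 0.499) and 0.187 in library 1 (0.125 to 0.272). The alpha-1 transcript was the scarcer one in both libraries, and the intervals of the libraries did not overlap. The alpha-1 transcript is also the richer in GC, at 58.9% against 55.7% for Col1a2. The part of GC content in this ratio was not tested within a library.

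Collagen chains coil into a triple helix only where glycine returns at a fixed spacing, so their messages repeat a GGN codon in a fixed frame. The longest unbroken run held 338 triplets in Col1a1, 339 in Col1a2, 344 in Col3a1 and 338 in Col5a1, and 66 in Col4a2 and 30 in Col18a1, whose helices are interrupted. Stretches of 24 codons from the coding sequences of the GENCODE M21 transcripts show this repeat in a scar collagen pair, type III and both basement membrane collagens with the largest folds. They start at base 502 of the coding sequence in Col1a1, 289 in Col1a2, 490 in Col3a1, 2329 in Col4a2 and 2857 in Col18a1, counted from 1 at the start codon, and capitals mark the glycine codons at the fixed spacing of the helix; other glycine codons are in lower case.
Col1a1: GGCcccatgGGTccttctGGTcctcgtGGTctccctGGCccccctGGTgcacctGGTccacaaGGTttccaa
Col1a2: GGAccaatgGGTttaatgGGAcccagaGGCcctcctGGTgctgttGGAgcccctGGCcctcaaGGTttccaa
Col3a1: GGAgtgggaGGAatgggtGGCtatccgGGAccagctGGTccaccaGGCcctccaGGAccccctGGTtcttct
Col4a2: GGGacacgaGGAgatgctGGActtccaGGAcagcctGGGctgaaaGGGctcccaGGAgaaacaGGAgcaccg
Col18a1: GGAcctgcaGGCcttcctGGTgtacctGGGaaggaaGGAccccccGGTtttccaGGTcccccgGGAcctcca
Over the whole coding sequence, GGT made up 50.6% of the glycine codons of Col1a1, 49.9% in Col1a2 and 39.9% in Col3a1. The share was 16.1% in Col4a2 and 18.3% in Col18a1. GGG made up 1.54% of glycine codons in Col1a1 and 22.2% in Col18a1.

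Among basement membrane chains, Col18a1 stood far above the rest. Its product carries endostatin, an inhibitor of vessel growth, at the C-terminal end, and hepatocytes are a known source of it in liver. Col18a1 (chr10:77052178-77166548, minus strand) had 253 TPM from 17733 counts in library 2, against 20.98 TPM from 832 counts in library 1. The libraries differed 17.0-fold (log2 4.09, 95% counting interval 3.99 to 4.19), so its mean of 137 ± 164 TPM (SD, n = 2) has an SD above the mean. Its rank among the 36 was 2 in library 2 and 5 in library 1.

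Col4a1 and Col4a2 encode the alpha-1 and alpha-2 chains that together form the common type IV collagen network. Col4a1 (chr8:11198423-11312826, minus strand) had 5.02 TPM in library 2 and 0.83 TPM in library 1, and Col4a2 (chr8:11312805-11449287, plus strand) had 3.51 and 0.24 TPM. Both were called higher in library 2, with log2 folds of 1.70 and 2.98. The ratio of Col4a1 to Col4a2 was 1.43 in library 2 (1.24 to 1.65) and 3.46 in library 1 (2.35 to 5.22), so the alpha-1 transcript was ahead in both. The genes lie head to head: their RefSeq start sites are 21 bases apart, and their exons overlap on opposite strands in the annotation. Whether counting used strand is not given in the sources used here, and reads from the overlap could then go to either gene.

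The 300 bases of Col4a2 from 250 before to 50 after its RefSeq start, chr8:11312555-11312854 on the plus strand of mm10, hold the start sites of both genes, and 78 of them lie in the Col4a1 window too. They are shown because the genes lie head to head. The calls above compare technical libraries of the same animal, so they do not bear on this promoter. Capitals mark CCAAT and GGGCGG or their reverse complements ATTGG and CCGCCC.
Col4a2 promoter: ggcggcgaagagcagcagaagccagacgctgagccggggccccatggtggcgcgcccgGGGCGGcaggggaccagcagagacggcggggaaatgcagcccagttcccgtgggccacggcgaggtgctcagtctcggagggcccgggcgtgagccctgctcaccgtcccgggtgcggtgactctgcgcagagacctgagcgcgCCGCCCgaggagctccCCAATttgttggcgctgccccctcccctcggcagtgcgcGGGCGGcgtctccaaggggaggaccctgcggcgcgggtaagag
The window held 1 CCAAT on the plus strand and 3 matches to GGGCGG over both strands. Of all 32851 RefSeq promoter windows of this length, 37.4% held CCAAT and 35.7% held GGGCGG on either strand, so either motif alone is common. The GC content of the window was 73.7%, against a median of 52.7% over all windows.

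The laminin chains of the set were lower in level than Col18a1, and their TPM ratio was close between the libraries. In library 1 both stood above Col4a1 and Col4a2. Lamc1, the gamma-1 chain (chr1:153218922-153332786, minus strand), had 4.09 TPM in library 2 and 2.13 TPM in library 1, and Lamb1, the beta-1 chain (chr12:31265234-31329644, plus strand), had 2.60 and 1.38 TPM. Neither was called different. The ratio of Lamb1 to Lamc1 was 0.636 in library 2 and 0.648 in library 1, with counting intervals that overlapped (0.518 to 0.778 and 0.494 to 0.847). Counting only coding transcripts of at least 50% of the reference length, the ratio was 0.723 in library 2 and 0.852 in library 1. In library 1 these transcripts held 33.6% of Lamb1 TPM and 25.4% of Lamc1 TPM, against 57.3% and 50.5% in library 2.

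Collagen VI forms beaded filaments around cells from alpha-1, alpha-2 and alpha-3 chains. Col6a1 had 2.32 TPM in library 2 and 0.43 TPM in library 1, Col6a2 had 1.52 and 0.13 TPM, and Col6a3 had 3.62 and 1.77 TPM. Col6a1 (log2 1.55) and Col6a2 (log2 2.46) were called higher in library 2 and Col6a3 was not (log2 0.91). The ratio of Col6a3 to Col6a2 was 2.38 in library 2 and 13.6 in library 1. Most of the Col6a3 TPM sat on a short transcript, Col6a3-206, a retained intron of 646 bases. It held 77.8% of the gene's TPM in library 2, from 19.9 estimated counts, and 89.0% in library 1, from 16.6. Most Col6a3 counts, 84.3% in library 2 and 69.3% in library 1, were on coding transcripts of at least 50% of the reference length. Counting only coding transcripts of at least 50% of the reference length, a choice made after these values were seen, the ratio was 0.563 in library 2 and 1.67 in library 1. Col14a1, which binds the surface of collagen fibrils, had 12.2 TPM in library 2 and 8.03 TPM in library 1 (log2 fold -0.63 by TMM, above 0 as a ratio of TPM), with rank 9 of the 36.

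The small leucine-rich proteoglycans, which bind collagen fibrils and limit their width, summed to 177 TPM in library 2 and 161 TPM in library 1, and all 3 were detected in both. Dcn, decorin, a binder of TGF-beta (chr10:97479609-97518143, plus strand), had 118 TPM in library 2 and 121 TPM in library 1, a mean of 120 ± 1.72 TPM (SD, n = 2). Its rank among the 36 was 3 in library 2 and 1 in library 1. On the TMM scale its 3067 counts in library 2 and 4586 in library 1 gave a log2 fold of -0.90. The scales differ in their zero: the median log2 difference of all genes tested was 0.84 by TPM, 0.62 by total count and 0.04 by TMM. Bgn, biglycan (chrX:73483602-73495933, plus strand), had 51.1 TPM in library 2 and 29.0 TPM in library 1 and was not called. Lum, lumican (chr10:97565128-97572703, plus strand), had 7.86 TPM in library 2 and 10.8 TPM in library 1, and was called lower in library 2 (log2 -1.34, -1.58 to -1.11).

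Fn1 was the highest of the 36 in library 2. Fibronectin links collagen to integrins, and its plasma form comes from hepatocytes. Fn1 (chr1:71585520-71653200, minus strand) had 400 TPM in library 2 and 105 TPM in library 1 and was called higher in library 2 (log2 1.18, 1.15 to 1.22), with most of its TPM on a retained intron transcript in both libraries. Ecm1, extracellular matrix protein 1 (chr3:95734147-95739569, minus strand), had 104 TPM in library 2 and 7.10 TPM in library 1 (log2 3.24, 3.02 to 3.47). Its rank was 4 in library 2 and 10 in library 1.

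Reln, reelin, a secreted glycoprotein and stellate cell marker, had 19.2 TPM in library 2 and 32.1 TPM in library 1 and was not called (log2 -0.76), and most of its TPM lay on a short non-coding transcript. Sparc, a collagen-binding glycoprotein also known as osteonectin, had 29.8 TPM in library 2 and 14.1 TPM in library 1 and was not called either (log2 0.25). The elastic fibre genes were near the detection limit. Fbln5, which guides elastic fibre assembly, had 1.00 TPM in library 2 and 0.53 TPM in library 1, and Fbln1 had 0.56 and 0.05 TPM. Fbln5 was not called (log2 0.03), and Fbln1, with 26 counts in library 2 and 4 in library 1, was called higher (log2 2.26, 0.85 to 4.36). Eln, elastin, had 0.97 TPM in library 2 from 36 counts and was at 0 counts in library 1, which allows up to 0.0548 TPM at a limit of 3 counts. It was at least 9.59-fold higher in library 2 against that limit of 3 counts in library 1.

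Of the matrix enzymes and inhibitors, the inhibitors Timp3 and Timp2 were present and the injury-responsive Timp1 was almost absent. Timp3, an inhibitor bound to the matrix, had 5.53 TPM in library 2 and 6.28 TPM in library 1 and was called lower in library 2 on the TMM scale (log2 -1.07). Timp2 had 6.70 TPM in library 2 and 2.29 TPM in library 1 and was not called (log2 0.29). Timp1 had 0.30 TPM from 3 counts in library 2 and 0.06 TPM from 1 count in library 1, too few for a fold. Mmp2, the gelatinase of mesenchymal cells, had 1.16 TPM in library 2 and 0.17 TPM in library 1 (log2 1.85, 0.93 to 2.98). Lox, the oxidase that crosslinks collagen and elastin, had the lowest mean level of the 36, with 0.09 TPM from 5 counts in library 2 and 0.17 TPM from 17 counts in library 1 (log2 -1.97, -3.88 to -0.59).

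The 3 cytoskeletal genes, all detected in library 2 and none in library 1 at 1 TPM, were called higher in library 2. Acta2, alpha smooth muscle actin and the usual marker of activated stellate cells (chr19:34241090-34255590, minus strand), had 3.25 TPM from 80 counts in library 2 and 0.41 TPM from 15 counts in library 1. Tagln, the actin-binding transgelin (chr9:45929619-45936058, minus strand), had 4.68 TPM in library 2 and 0.72 TPM in library 1. Des, the desmin of stellate cell and muscle filaments (chr1:75360329-75368579, plus strand), had 1.89 TPM from 83 counts in library 2 and 0.10 TPM from 3 counts in library 1. Their log2 folds were 2.06 for Acta2 (1.29 to 2.99), 1.79 for Tagln (1.15 to 2.53) and 4.28 for Des (2.87 to 6.77). Tagln shares exonic bases on opposite strands with Pcsk7, which had 548 counts in library 2 and 62 in library 1, and reads of the overlap cannot be told apart without strand.

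Among ligands, receptors and the transcription factor, all 5 were detected in library 2 and only Hgf in library 1. Hgf, the growth factor that stellate cells supply to hepatocytes, had 2.30 TPM in library 2 and 2.42 TPM in library 1 and fell just short of a call on the TMM scale (log2 -0.96, -1.36 to -0.57). Pdgfra and Pdgfrb encode the receptors of platelet-derived growth factors, and Pdgfrb marks stellate cells. Pdgfra had 1.15 TPM in library 2 and 0.96 TPM in library 1, and Pdgfrb had 2.35 and 0.22 TPM, so that the leading receptor changed between libraries. Pdgfrb was called higher in library 2 (log2 2.52, 1.94 to 3.19) and Pdgfra was not (log2 -0.62 by TMM, above 0 as a ratio of TPM). Ngfr, the low-affinity neurotrophin receptor p75, had 1.65 TPM in library 2 and 0.15 TPM in library 1 (log2 2.55). Hand2, a transcription factor of stellate cells, had 2.94 TPM in library 2 and 0.79 TPM in library 1, and its log2 fold of 0.998 was just under a call.

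Over the whole set, 35 genes had enough counts to compare, 20 or more over both libraries. Called higher in library 2 were 17 of them, and 3 were called lower, Lum, Timp3 and Lox. Of all genes tested, 33.0% were called higher and 24.0% lower, and 57.0% in either direction. For Col1a1, Mmp2, Fbln1, Timp3 and Lox the counting interval of the fold reached inside the limit of a call. By total count the split of the 35 genes was 20 higher and 1 lower, beside 42.1% and 7.73% of all genes. Transcript GC content ran with the fold inside the set as it did in all genes. The Spearman rho was 0.801 across the 35 genes, which share both libraries, and the GC content is that of the annotated transcript with the longest coding sequence. The 4 members under 45% GC, Dcn, Lum, Hgf and Lox, had a median log2 fold of -1.15, beside -1.31 over the 3052 genes of that class. The 13 members between 55% and 60% GC had a median of 1.70, beside 2.57 over 2426 genes.

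**Figure D2:**
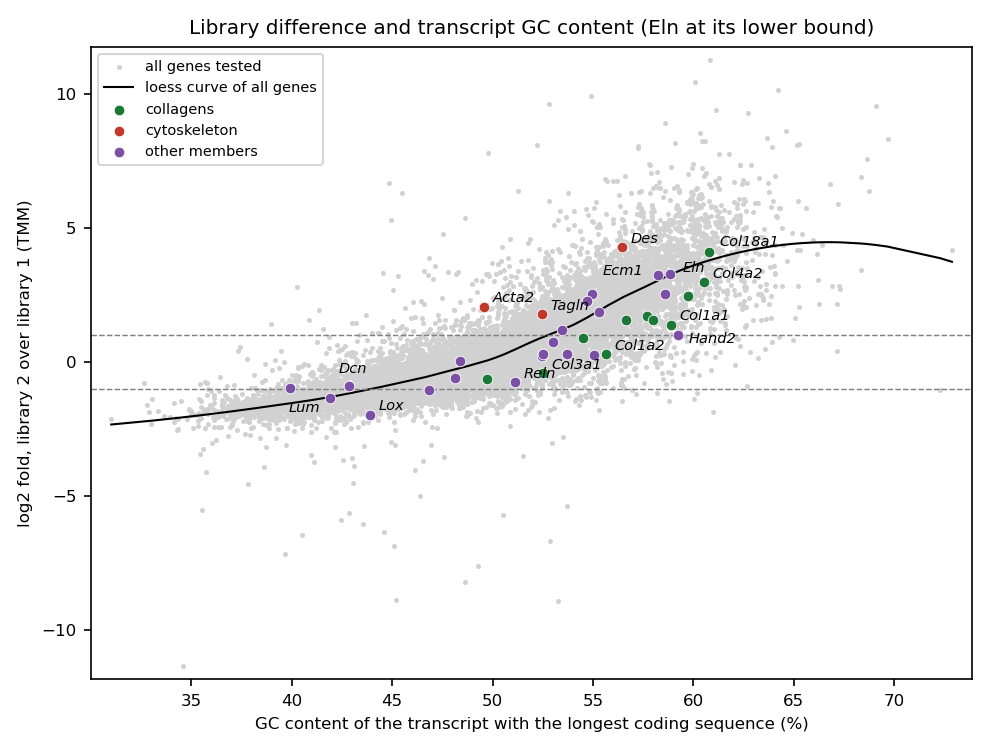
Log2 fold of library 2 over library 1 on the TMM scale against the GC content of the transcript, for all genes tested (grey), the collagens (green), the cytoskeletal genes (red) and the other members (purple). The line is a loess curve through all genes, and dashed lines mark a 2-fold difference. Eln is placed at its fold against a limit of 3 counts in library 1. Most collagens lie under the curve and the 3 cytoskeletal genes lie above it.

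Set against the all-gene curve (a loess fit to GC content), most collagens and the cytoskeletal genes lay on opposite sides. Of the 11 collagens, 10 lay under the curve, beside 52.2% of the 12641 genes with a curve value, and Col18a1 lay 0.31 above it on the log2 scale. At least 2-fold under the curve were 6 of the 11, Col1a1 (-1.88), Col1a2 (-1.78), Col5a1 (-1.39), Col3a1 (-1.34), Col4a1 (-1.13) and Col6a2 (-1.07), where 9.72% of all genes were that far under. All 4 fibrillar collagens were among them. Acta2 lay 2.05 above, Des 1.88 and Tagln 0.88, and 10.5% of all genes were at least 1 above, with 20.2% that far off on either side. Over all members, Acta2 and Des were at least 2-fold above the curve and 9 were at least 2-fold under. Des rests on 3 counts in library 1, and its counting interval reached inside the 2-fold limit around the curve. The intervals of Col4a1, Col5a1 and Col6a2 did so too. Eln had 0 counts in library 1, and with 3 counts put in their place its log2 fold of 3.26 lay 0.02 above the curve. The lower limit of its counting interval, 2.89, was under its curve value of 3.24, so Eln is not placed past the 2-fold limit. The others under were Hand2 (-2.38), Sparc (-1.55) and Reln (-1.21). For some members, among them Sparc, Fn1, Col18a1, Col14a1 and Col6a3, the annotated transcript that gave the GC content had no TPM in either library. With the GC content of the coding sequence in place of the whole transcript, chosen after these values were seen, the 4 fibrillar collagens stayed at least 2-fold under the curve and Acta2, Tagln and Des at least 2-fold above. Col18a1 was then 1.37 above, and Col4a1 and Col6a2 were less than 2-fold under. In library 1 Acta2 rests on 15 counts, Tagln on 23 and Des on 3, and counting error around the coding curve was not computed.

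**Figure D3:**
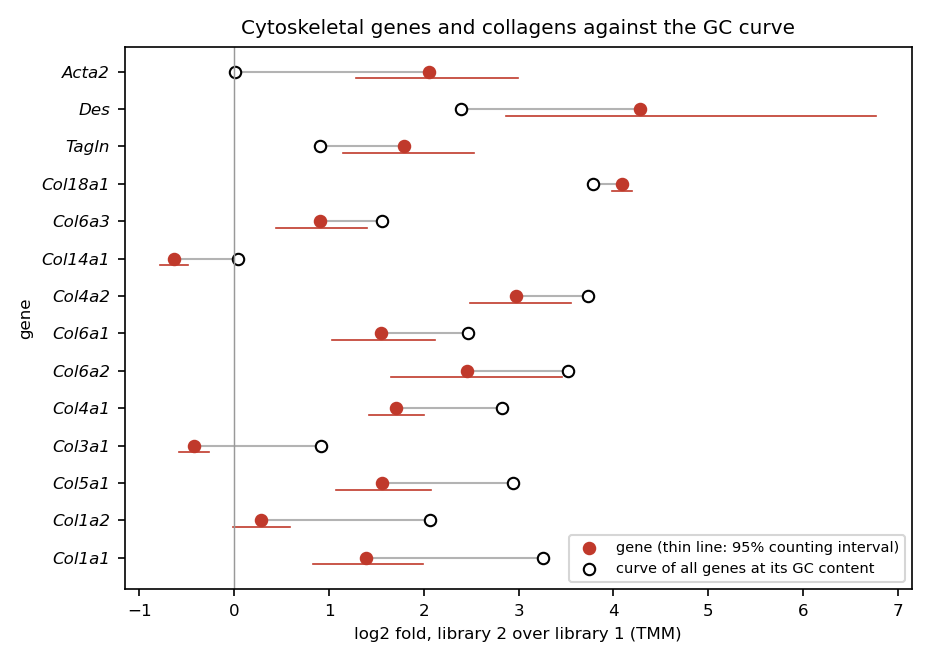
Log2 fold of library 2 over library 1 (red, with its 95% counting interval as a thin line below) and the value of the all-gene curve at the same GC content (open circles) for the 3 cytoskeletal genes and the 11 collagens. The red points of Acta2, Des, Tagln and Col18a1 lie right of their open circles, and those of the other 10 collagens lie left of them.

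As TPM, several of these levels rested on short or non-coding transcripts. Of 15 members with at least 2 annotated transcripts and 1 TPM in both libraries, the transcript with the largest share of TPM was the same in 10, and the transcript with the most estimated counts was the same in 15. Fn1-202, a retained intron transcript of 4022 bases, held 56.8% of Fn1 TPM in library 2 and 81.9% in library 1. Coding Fn1 transcripts of at least 50% of the reference length held 129 TPM in library 2 and 13.9 TPM in library 1. Reln-205, a processed transcript of 891 bases without a coding sequence, held 61.3% of Reln TPM in library 2 and 92.6% in library 1. The full-length Reln-207 had 2.24 and 2.21 TPM but the most estimated counts in both libraries. Such long coding transcripts held 61.5% of Reln counts in library 2 and 55.8% in library 1, and 51.1% and 23.5% of Fn1 counts. By the mean of long coding transcripts, the order began with Col18a1, Dcn and Fn1, and Reln stood at rank 14 in place of 6. The place of Col18a1 came from library 2, at 235 TPM, against 5.52 TPM in library 1. There Dcn, Bgn (22.3 TPM), Sparc (13.9 TPM), Fn1, Lum (10.8 TPM) and Timp3 (6.26 TPM) all stood above it. Dcn kept all of its level, 118 TPM in library 2 and 121 TPM in library 1.

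The split among transcripts also shifted between libraries. Col18a1-203 held 39.5% of the gene's TPM in library 2 and 0.23% in library 1, and Col18a1-204, a coding fragment of 717 bases, held 0.10% and 68.6%. Sparc-201 held 37.5% in library 2 and 0% in library 1, where Sparc-202 held 99.0%. Col3a1-205, a fragment of 737 bases, held 39.8% of Col3a1 TPM in library 2, from 38.9 counts, and 50.6% in library 1, from 62.7. Full-length Col3a1-201 carried 6.91 and 4.85 TPM.

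**Figure D4:**
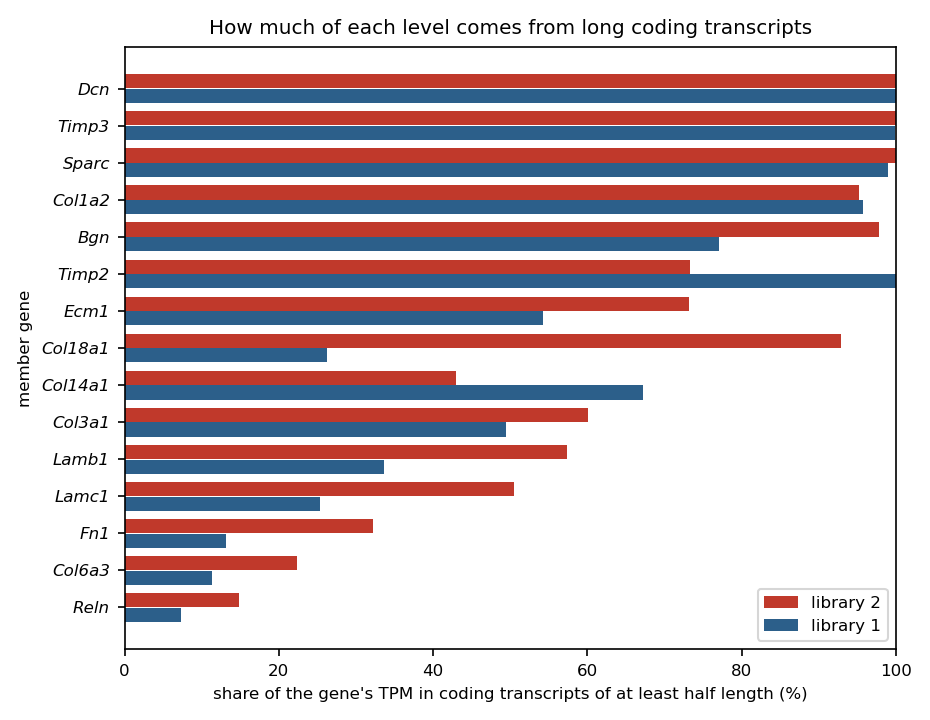
Share of each gene's TPM in coding transcripts of at least 50% of the reference length, in percent, for the 15 members with at least 2 transcripts and 1 TPM in both libraries, with library 2 above library 1. Dcn, Timp3, Sparc and Col1a2 are near the full scale in both libraries, Fn1, Col6a3 and Reln are low in both, and Col18a1 is at 92.8% in library 2 and 26.3% in library 1.

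Fibronectin is spliced at extra domains that the plasma form lacks and the cellular form of scars keeps. A 270-base exon that only some full-length coding Fn1 transcripts hold (chr1:71603660-71603929, the length of extra domain A) was in transcripts with 1.41 of 129 TPM in library 2 and 2.55 of 13.9 TPM in library 1, or 1.10% and 18.4%. A 273-base alternative exon (chr1:71613763-71614035, the length of extra domain B) was in transcripts with 0 TPM in both libraries. These shares are estimates over whole transcripts, not counts of reads across the splice sites.

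Markers of the cells that could supply these genes were checked in the same libraries. Of 16 further markers of quiescent stellate cells, 12 reached 1 TPM in library 2 and 7 in library 1, with summed levels of 106 and 62.4 TPM. That level was reached by 49.8% and 40.1% of nuclear protein-coding genes. Colec11 had 27.9 TPM in library 2 and 5.19 TPM in library 1, Rgs5 had 12.2 and 19.5, Colec10 had 10.1 and 17.2, and Vim had 12.9 and 4.54. Bambi and Nes stayed under 1 TPM in both libraries, as did Gfap, with 4 and 5 counts. Of the 15 with enough counts, 6 were called higher in library 2 and 4 lower, near the 33.0% and 24.0% of all genes. Against the GC curve 2 were at least 2-fold above and 3 at least 2-fold under, beside 10.5% and 9.72% of all genes.

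Portal fibroblast markers were scarcer, with 6 of 10 at 1 TPM or more in library 2 and 1 of 10 in library 1, and summed levels of 29.3 and 5.13 TPM. Beside these and the lists that follow, 49.8% and 40.1% of nuclear protein-coding genes reached 1 TPM. Gas6, at 17.5 TPM in library 2 and 0.91 TPM in library 1, and Dpt, at 4.68 and 2.88 TPM, led them, and Gli1 had 1 and 0 counts. Of 8 smooth muscle markers, 2 were detected in library 2 and 1 in library 1, and their sum of 16.8 TPM in library 2 and 7.62 TPM in library 1 came mostly from Mylk, at 12.7 and 7.05 TPM. Myh11, a defining marker, had 0.70 TPM in library 2 and 0.14 TPM in library 1. Of the 4 smooth muscle markers with enough counts, 1 was at least 2-fold above the GC curve and 1 at least 2-fold under. These were Smtn (2.06, on 1 count in library 1) and Mylk (-1.20), beside 10.5% and 9.72% of all genes. Of 5 mesothelial markers, 4 were detected in library 2 and 1 in library 1, with sums of 6.32 and 2.65 TPM. All 8 hepatocyte markers were detected in both libraries, with sums of 72861 and 30758 TPM, as the tissue label has it. The part of each cell type in the levels of the 36 genes was not tested.

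The machinery that modifies and trims collagen chains was measured beside its substrates. Of 17 folding and crosslinking genes, library 2 detected 13 and library 1 detected 8, beside 49.8% and 40.1% of nuclear protein-coding genes. Called higher in library 2 were 11 and lower 0, beside 33.0% and 24.0% of all genes. The median GC content of these 17 was 56.2%. Against the GC curve 0 were at least 2-fold above and 4 at least 2-fold under, beside 10.5% and 9.72% of all genes. P4hb, the disulfide isomerase subunit of prolyl hydroxylase that all secretory cells use, had 639 TPM in library 2 and 195 TPM in library 1. Bmp1, the procollagen C-proteinase, had 33.7 and 2.50 TPM, Colgalt1 had 23.7 and 10.0, and Plod1, a lysyl hydroxylase, had 17.4 and 1.48. The crosslinking genes Loxl2, Loxl3 and Plod2 stayed under 1 TPM in both libraries. Of 9 other fibrillar and fibril-associated collagens, library 2 detected 4 and library 1 detected 1, and Col2a1 and Col11a1, the cartilage collagens, had 0 counts in both. Of 13 other basement membrane genes, 8 reached 1 TPM in library 2 and 2 did in library 1, led by Agrn, agrin, at 11.6 TPM in library 2 and 2.65 TPM in library 1.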

How the data were processed

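PolyA RNA of liver from 1 mouse was sequenced as 2 technical libraries with an insert size range of 350 to 450, per the labels. Reads were aligned to mm10 and quantified against annotation M4, per the deposited readme files; the sources used here do not name the aligner, the counter or its strand setting. The deposited gene and transcript tables hold estimated counts, TPM and FPKM, and the transcript tables add the percent of a gene's TPM held by each transcript, per the file headers. All 4 units were used as deposited.

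Estimated counts were rounded, and the 12728 genes with 20 or more counts over both libraries were compared. Log2 folds were library 2 over library 1, with edgeR 4.0.16 TMM scaling and a prior count of 0.5 (R 4.3.3); a fold of 2 or more was called. DESeq2 1.42.0 size factors, total counts and TPM ratios were alternatives. With 1 library on each side no p-value was computed. Counts of the 12728 genes were simulated for this comparison, with 200 genes changed by a log2 fold of 2. Of these, 100% were recovered, and 0.67% of the others were called. The simulated counts were Poisson draws from a mean profile of both libraries, without the GC trend of the real pair. They check the computation only and give no error rate for the calls reported here. A loess curve of span 0.3 gave the fold at each GC content, taken with gene positions from the GENCODE M21 annotation of the same assembly. Reference length is that of the annotated transcript with the longest coding sequence. Correlations of levels used log2(TPM + 0.1). Intervals at 95% are exact binomial or Poisson and cover counting error only, since reads without molecular identifiers are not independent molecules; 3 counts were the limit for a count of 0. The deposited tables pair no names with IDs: M21 names matched 42462 of 43346 Ensembl genes. Promoter windows are from RefSeq, mm10 assembly.

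The 36 genes, the related lists and the tests were chosen with earlier results of these data known. All 36 genes are accounted for; of each related list, up to 4 genes highest in mean TPM and up to 3 under 1 TPM in both libraries are named, and Pcsk7 is named for its overlap. Leaving out either library, count filters, other fold limits and coding transcripts only were further alternatives.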

Additional observations from a re-analysis of the deposited data

How the results depend on the processing

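The counts of calls depended on scaling, filter, GC content and fold limit. Called higher were 7 of the 21 members with a summed count of at least 200. Of the 35 tested, 3 were higher after the GC curve, 7 after a curve on coding GC and 10 at a 4-fold limit. Both curve counts include Eln by a fitted value that rests on 0 counts in library 1. Called lower were 1 by total count, 0 by TPM ratio, 9 after either curve, 8 at a 1.5-fold limit and 0 at a 4-fold limit. Over all genes, 6521 were higher and 4711 lower with no count filter, and 2651 were higher and 2274 lower at 200 counts. These filters change the number of genes compared. After the GC curve 1326 were higher and 1229 lower, or 10.5% and 9.72% of 12641 genes. After the coding curve 1938 were higher and 1953 lower, of 11993 genes. Of 12728 genes, 2597 were higher and 235 lower at 4-fold, and 5018 were higher and 4476 lower at 1.5-fold. Lower by total count were 984 (7.73%), and 336 were lower by TPM ratio. Among genes past the limit before or after a curve, the sign turned after the GC curve for Fn1 (-0.018), Col4a1 (-1.13), Col4a2 (-0.75), Col6a1 (-0.92), Col6a2 (-1.07), Col1a1 (-1.88), Col5a1 (-1.39), Ngfr (-0.61), Mmp2 (-0.055), Hand2 (-2.38), Col1a2 (-1.78) and Sparc (-1.55). After the coding curve it turned, among such genes, for Col4a1 (-0.96), Col6a1 (-0.45), Col6a2 (-0.040), Col1a1 (-1.28), Col5a1 (-1.19), Ngfr (-0.20), Hand2 (-1.27), Col1a2 (-2.17), Sparc (-1.51) and Timp2 (-1.52). Among the other scalings, 3 uncalled genes (Col3a1, Col14a1, Pdgfra) changed sign by TPM ratio and 1 (Col3a1) by total count; no called gene did. At 5 TPM, 11 members were detected in both libraries, and 17 to 32 were detected at 1 TPM with either library left out. The mean share of TPM was 0.124% within nuclear protein-coding genes, and 0.203% of estimated counts. With coding transcripts only, the log2 ratio was -0.047 for Col6a3 to Col6a2 and -0.35 for Lamb1 to Lamc1. The coding curve and the coding-transcript settings were added after seeing the data; the cause of each shift was not tested. Depth limits Timp1, Lox, Fbln1, Des, Eln, Acta2, Mmp2, Ngfr and Col6a2, each at 17 counts or fewer in library 1.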

Other observations

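Most TGF-beta and PDGF pathway genes were detected, and most scar genes were not. Over nuclear protein-coding genes, 49.8% were detected at 1 TPM in library 2 and 40.1% in library 1. Of 17 genes of the TGF-beta and PDGF pathway, 13 reached 1 TPM in library 2 and 11 in library 1, and of 16 tested, 2 were called higher in library 2 and 4 lower, beside 33.0% and 24.0% of all genes; by total count the split was 4 and 1. Met, the receptor of Hgf, had 19.7 TPM in library 2 and 23.6 TPM in library 1, above its ligand at 2.30 and 2.42 TPM. Smad4 had 12.7 and 9.10 TPM, Smad2 had 7.93 and 8.42, and Tgfbr1 had 5.67 and 8.88. Tgfb3 and Pdgfb stayed under 1 TPM in both libraries.

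Of 11 scar genes of activated stellate cells, 2 were detected in each library, Spp1 (58.0 TPM in library 2 and 45.9 TPM in library 1) and Postn (4.66 and 6.65 TPM). The shares over nuclear protein-coding genes were 49.8% in library 2 and 40.1% in library 1. Loxl2 and Thbs2 stayed under 1 TPM, and Cthrc1 had 0 counts in both libraries. Spp1, osteopontin, is also a bile duct marker, and of 6 bile duct markers 4 reached 1 TPM in library 2 and 2 did in library 1. Of 12 other matrix metalloproteinases and inhibitors, 6 reached it in library 2 and 4 did in library 1. Mmp19 led them with 36.2 TPM in library 2 and 20.3 TPM in library 1, followed by Mmp14 with 15.2 and 2.22 TPM, while Mmp9, Mmp12 and Mmp13 stayed under 1 TPM in both.

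Endothelial markers numbered 8, of which 8 passed 1 TPM in library 2 and 7 in library 1. Kupffer cell and macrophage markers gave the same counts, 8 of 8 and 7 of 8, beside 49.8% and 40.1% of nuclear protein-coding genes.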
